A study of Mus musculus with 6 samples.

Results

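The T cell receptor reads antigen but has no signalling tail of its own, and it depends on the CD3 chains and on a few proteins that sit next to them. The 10 genes described here are those of the 4 CD3 chains (Cd3d, Cd3e, Cd3g and Cd247), the kinase Zap70, the adaptor Lat and the surface proteins Cd2, Cd5, Cd6 and Thy1. They were chosen by name, not by their own values, though with earlier results of these data known. Each was taken at the probe set that names it alone in the platform's probe table. All 10 were found among the 19946 genes that could be named, and each had a single probe set. The samples were CD3-positive cells sorted by flow cytometry from the spleens of 6 mice on day 10 after transplantation, with 1 expression array per mouse. All recipients were lethally irradiated B6D2F1 mice (labelled B6D2F1/J) given B6 bone marrow from which T cells had been removed. The protocol describes transplants with and without B6 spleen cells added, and the labels do not say which of these any mouse received. In the rapamycin group, 3 mice were injected intraperitoneally with rapamycin at 1.5 mg/kg on alternate days until day 10, and in the PBS group 3 mice were injected with phosphate-buffered saline instead. The labels used here state neither age nor sex.

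When a peptide bound to MHC engages the receptor, the kinase Lck phosphorylates the paired tyrosines in the tails of the CD3 chains. Zap70 docks on these tyrosines and phosphorylates Lat, a membrane scaffold from which the calcium, diacylglycerol, Ras and actin branches start. Cd2 strengthens adhesion and signalling, Cd5 and Cd6 are scavenger receptor-family proteins that tune the strength of the signal, and Thy1 is a lipid-anchored glycoprotein that marks mouse T cells. Rapamycin inhibits the kinase mTOR, which acts on growth and metabolism in activated T cells. The comparison asked whether transcripts of this apparatus differed between T cells of rapamycin- and PBS-treated recipients.

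The genes Cd3g, Cd3d and Cd3e are consecutive protein-coding genes on chromosome 9, and Cd5 and Cd6 are neighbours on chromosome 19 in RefSeq's annotation of GRCm38.p6. The 250 bases before the start site are given for the 3 adjacent CD3 genes, whose values moved together from mouse to mouse, and for Cd5, the gene with the largest difference between the groups. Sequences and start sites are RefSeq's, on GRCm38.p6, 5′ to 3′ in the direction of transcription, for chr9:44980432-44980681 (minus strand, Cd3g), chr9:44981536-44981785 (plus strand, Cd3d), chr9:45009612-45009861 (minus strand, Cd3e) and chr19:10738975-10739224 (minus strand, Cd5). Capitals mark any match, on either strand, to 5 short motifs that do not overlap in these stretches. The core bound by ETS factors was searched as AGGAAG. The motif of RUNX factors was taken as TGTGGT. That of GATA factors, which direct T cell development, was written as AGATAA. The motif of the TCF and LEF factors was searched as CTTTGA, and the TATA box was given the letters TATAAA.
Cd3g: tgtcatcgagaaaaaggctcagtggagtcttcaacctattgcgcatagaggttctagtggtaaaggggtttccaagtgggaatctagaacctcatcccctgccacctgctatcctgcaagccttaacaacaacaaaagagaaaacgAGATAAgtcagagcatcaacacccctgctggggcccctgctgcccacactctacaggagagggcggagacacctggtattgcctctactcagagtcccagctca
Cd3d: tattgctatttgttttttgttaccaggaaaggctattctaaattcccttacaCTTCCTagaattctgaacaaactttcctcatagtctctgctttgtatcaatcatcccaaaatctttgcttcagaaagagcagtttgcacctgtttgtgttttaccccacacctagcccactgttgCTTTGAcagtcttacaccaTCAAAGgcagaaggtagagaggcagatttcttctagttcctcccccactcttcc
Cd3e: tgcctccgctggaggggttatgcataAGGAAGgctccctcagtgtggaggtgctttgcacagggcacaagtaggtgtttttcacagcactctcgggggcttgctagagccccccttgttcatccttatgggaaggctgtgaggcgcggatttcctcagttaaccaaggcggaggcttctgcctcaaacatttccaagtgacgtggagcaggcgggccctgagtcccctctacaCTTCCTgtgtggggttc
Cd5: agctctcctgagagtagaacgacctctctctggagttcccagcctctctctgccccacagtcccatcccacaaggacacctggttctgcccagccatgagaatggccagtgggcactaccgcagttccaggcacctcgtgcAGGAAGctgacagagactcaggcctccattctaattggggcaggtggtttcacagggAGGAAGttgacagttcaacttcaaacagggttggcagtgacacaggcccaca

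Among these 4 stretches, the ETS letters occurred in Cd3d, Cd3e and Cd5, and in Cd3e 1 of the matches began 17 bases before the start site. In Cd5 the matches began 109 and 52 bases before it. Cd3d held 2 TCF/LEF matches, and Cd3g held a GATA match 104 bases before its start site and no ETS match. Start sites were at hand for 7 of the 10 genes (not for Cd2, Cd6 and Thy1), and 6 of these 7 had an ETS match in at least 1 of their windows, where 29.5% of all 32851 such windows have one. TCF/LEF letters were present in 2 of the 7 genes (13.8% of all windows), RUNX letters in 1 (14.0% of windows), GATA letters in 1 (9.99% of windows) and the TATA letters in 0 (12.4% of windows). Windows of 1 gene count separately in the whole table, and these matches describe letters, not binding.

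Transcripts of the receptor complex and its proximal partners lay close between rapamycin and PBS mice. Of the 10 genes, 0 passed the test across all genes (limma's moderated test, Benjamini-Hochberg adjusted p under 0.05), and 1, Cd5, had an unadjusted p under 0.05. Over all 19946 genes, 1 gene passed, which is 0.00501%, and it was not among the 10: Glp1r, the receptor for glucagon-like peptide. It passed without rapamycin replicate 1, when 7 genes did, and no gene passed without any one of the other mice (limma, 666 to 929 at an unadjusted p under 0.05). At an unadjusted p under 0.05 the share over all genes was 4.67% (3.07% lower and 1.6% higher with rapamycin), so 1 of 10 genes is near what the whole array gave. Differences, always rapamycin minus PBS on the log2 scale, ran from -0.19 for Cd5 to 0.08 for Cd2. They were negative for 8 of the 10 genes, with a median of -0.04, while 55.3% of all genes were negative with a median of -0.01. Under 3 other scalings of the arrays the count was 7, with Cd3d at 0.01, and 10013 to 10079 of all 19946 genes were negative. The 95% intervals of the 10 differences lay between -0.38 and 0.36, so rapamycin levels under 0.771 times or over 1.29 times the PBS level fall outside every interval. An adjusted p of 1 in these data does not show that the groups are alike.

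**Figure D1:**
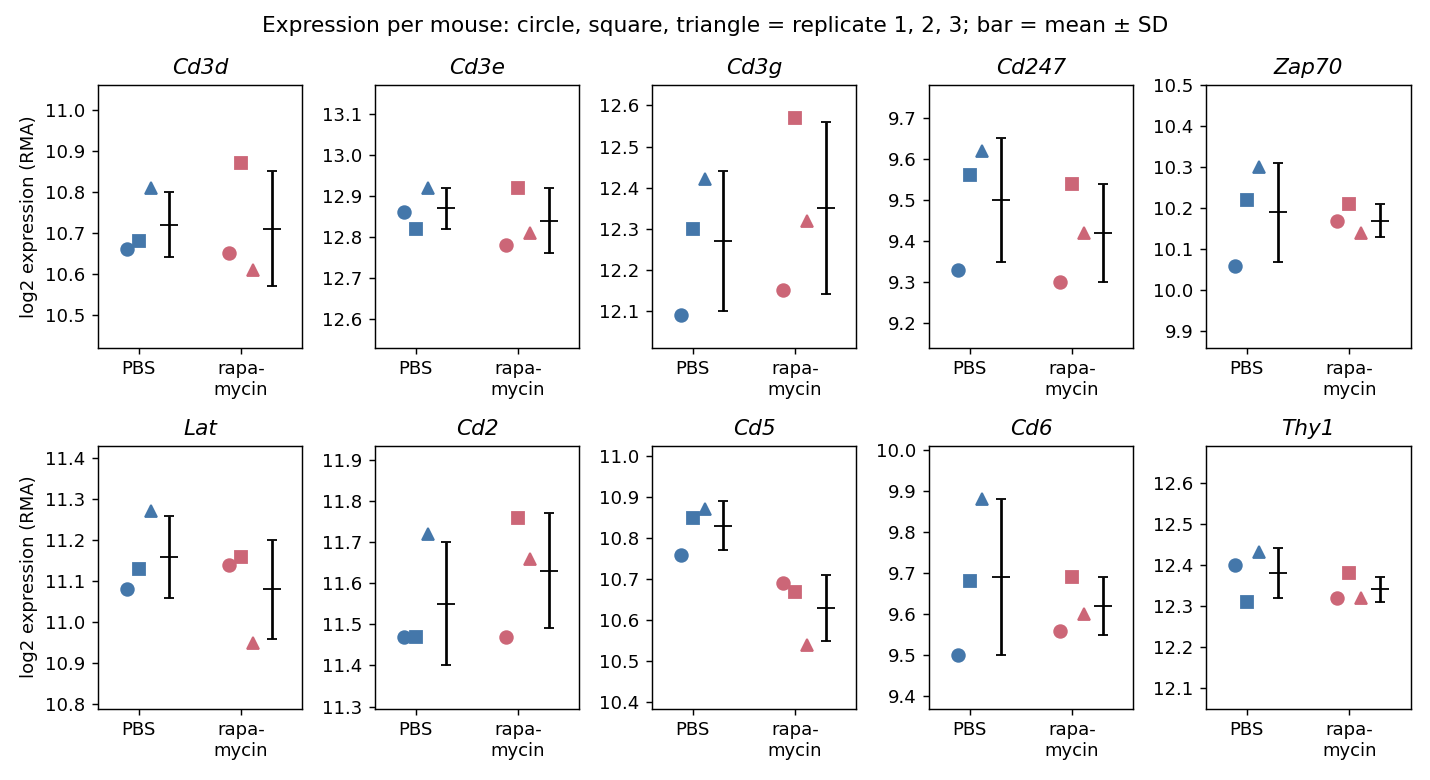
Expression of each of the 10 genes in each mouse (y axis, log2 expression after RMA; every panel spans the same range; x axis, treatment; circle, square and triangle are replicates 1, 2 and 3; black bar, mean ± SD, n = 3). The groups overlap in 9 genes, and for Cd5 the rapamycin mice, at 10.54 to 10.69, lie below the PBS mice, at 10.76 to 10.87.

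The CD3 chains form the dimers that carry the receptor to the surface and pass on its signal. Cd3e, the epsilon chain that pairs with both delta and gamma, measured 12.86, 12.82 and 12.92 in PBS replicates 1 to 3 and 12.78, 12.92 and 12.81 in rapamycin replicates 1 to 3. The groups overlapped almost fully, with a difference of -0.03 (SE 0.08, 95% interval -0.21 to 0.15, limma adjusted p = 1). For Cd3d, the delta chain, the PBS mice were at 10.66, 10.68 and 10.81 and the rapamycin mice at 10.65, 10.87 and 10.61. Its difference of -0.004 (SE 0.09) was the smallest of the 10 genes, and both the highest and the lowest mouse were in the rapamycin group. Its sign changed under 8 of 15 other ways of processing the data.

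Cd3g, the gamma chain, varied most between mice of a group among the 10 genes. The PBS mice were at 12.09, 12.30 and 12.42 and the rapamycin mice at 12.15, 12.57 and 12.32, with replicate 1 the lowest of each group. Its difference was 0.07 (SE 0.13, 95% interval -0.22 to 0.36), and it became -0.02 without PBS replicate 1 and -0.04 without rapamycin replicate 2. Cd247 encodes the zeta chain, which holds several of the paired tyrosine motifs and is added last when the receptor is assembled. It measured 9.33, 9.56 and 9.62 with PBS and 9.30, 9.54 and 9.42 with rapamycin, and replicate 1 was again the lowest of each group. The groups overlapped, with a difference of -0.08 (SE 0.10, 95% interval -0.32 to 0.15).

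Zap70, the kinase recruited to the CD3 and zeta tails, measured 10.06, 10.22 and 10.30 with PBS. In the rapamycin mice it was at 10.17, 10.21 and 10.14, inside the PBS range, with a difference of -0.02 (SE 0.09, 95% interval -0.22 to 0.18). Lat, the scaffold that Zap70 phosphorylates, was at 11.08, 11.13 and 11.27 with PBS and at 11.14, 11.16 and 10.95 with rapamycin. Only rapamycin replicate 3 lay below the PBS mice, and the difference was -0.08 (SE 0.09, 95% interval -0.29 to 0.13). It was negative under each of the 15 alternatives, some of which cannot change a difference.

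Cd5, an inhibitory receptor whose surface level on T cells is known to follow the strength of receptor signalling, was the 1 gene of the 10 whose groups did not overlap. The PBS mice were at 10.76, 10.85 and 10.87 and the rapamycin mice at 10.69, 10.67 and 10.54, leaving a gap of 0.07 between the groups. The mean level was 10.83 ± 0.06 with PBS and 10.63 ± 0.08 with rapamycin (SD, n = 3 each), a difference of -0.19 (SE 0.08, 95% interval -0.38 to -0.01), which is 12.6% less. The unadjusted p of limma's moderated test was 0.0401 and the adjusted p was 1, with 3 of 3 rapamycin mice below every PBS mouse. Over all genes, 6.28% were lower with rapamycin and 3.14% higher without overlap between the groups, so 1 of 10 genes apart is close to the 9.43% of the whole array. The unadjusted p rose above 0.05 when PBS replicate 2 or 3 or rapamycin replicate 2 or 3 was left out (0.0578 to 0.147), and lay at 0.0353 to 0.0447 without either of the others. Across 15 alternatives, some of which cannot change it, the Cd5 difference stayed between -0.23 and -0.15, with an adjusted p of 0.62 to 1 in limma.

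Cd6 lies next to Cd5 in the genome and encodes a related receptor. It measured 9.50, 9.68 and 9.88 with PBS and 9.56, 9.69 and 9.60 with rapamycin, so all rapamycin mice fell within the PBS range. Its difference was -0.07 (SE 0.11, 95% interval -0.31 to 0.17), and without PBS replicate 3, its highest sample, it was 0.03. Cd2, the adhesion receptor that binds Cd48 in mice, was at 11.47, 11.47 and 11.72 with PBS and at 11.47, 11.76 and 11.66 with rapamycin. It had the highest difference of the 10 genes, 0.08 (SE 0.11, 95% interval -0.17 to 0.32), with the lowest mice of both groups at the same level. Thy1 had the least spread within groups of the 10. It measured 12.40, 12.31 and 12.43 with PBS and 12.32, 12.38 and 12.32 with rapamycin, a difference of -0.05 (SE 0.07, 95% interval -0.22 to 0.12).

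**Figure D2:**
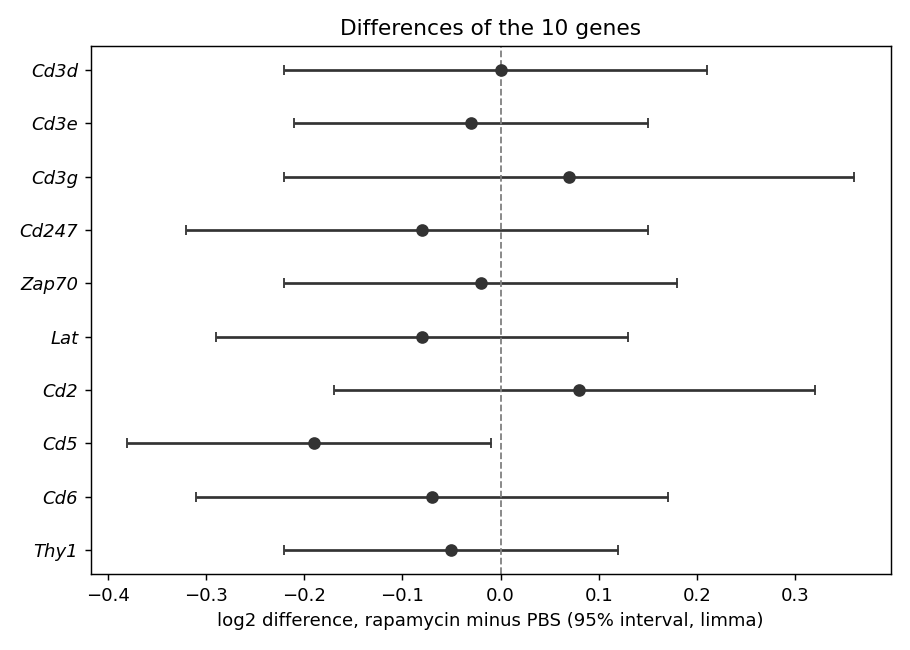
Difference between rapamycin and PBS mice for each of the 10 genes (x axis, log2 difference with its unadjusted 95% interval from limma; dashed line, no difference). Points lie between -0.19 and 0.08, and the interval of Cd5, from -0.38 to -0.01, is the 1 that leaves out 0.

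Because the cells were sorted on CD3, the other 6 genes were also set against the mean of the 4 CD3 chain genes of the same array. Relative to that mean, Cd5 was at -0.47, -0.49 and -0.57 in the PBS mice and at -0.53, -0.80 and -0.75 in the rapamycin mice. On this scale the groups overlapped: rapamycin replicate 1 lay within the PBS range and the other rapamycin mice lay below it. The difference kept its size at -0.18 but its standard error rose to 0.134 (95% interval -0.46 to 0.10, limma unadjusted p = 0.192, adjusted p = 1). Differences of the other 5 genes on this scale were between -0.07 for Lat and 0.09 for Cd2, each with an adjusted p of 1 in limma.

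The 10 genes also moved together from mouse to mouse within each group. In PBS replicate 3 all 10 lay above their own mean over the 6 arrays, by 0.13 on average, and in rapamycin replicate 2 9 did, by 0.08. In rapamycin replicate 1 only 1 of 10 did, in rapamycin replicate 3 2, in PBS replicate 1 3 and in PBS replicate 2 5. PBS replicate 3 was the highest of the 6 mice for 7 genes and rapamycin replicate 2 for the other 3. The exception in rapamycin replicate 2 was Cd5, which lay below its mean there while the CD3 chains were high.

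Markers of neutrophils and their precursors moved the opposite way across the same arrays. The log2 of the summed level of 11 such genes was 14.37, 14.10 and 13.24 in PBS replicates 1 to 3 and 14.69, 13.99 and 14.61 in rapamycin replicates 1 to 3. PBS replicate 3 and rapamycin replicate 2, the mice with the highest receptor genes, had the lowest neutrophil levels, and rapamycin replicate 1 had the highest. All 11 neutrophil markers measured higher on average with rapamycin (median difference 0.49), but 0 of 11 passed the test (limma, 1 at an unadjusted p under 0.05). With the mean log2 level of the 11 markers as a covariate (10.06, 9.73 and 8.57 in the PBS mice, 10.51, 9.28 and 9.89 in the rapamycin mice), the Cd5 difference was -0.18 (limma unadjusted p = 0.0692), and the median over the 10 genes was 0.0075 in place of -0.04. The covariate comes from the same arrays and its 11 markers all measured higher with rapamycin, so this fit cannot separate cell mixture from treatment. In such sorted bulk samples, fewer T cells and less of a transcript per T cell cannot be told apart. The part of other cells in these differences was not tested.

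**Figure D3:**
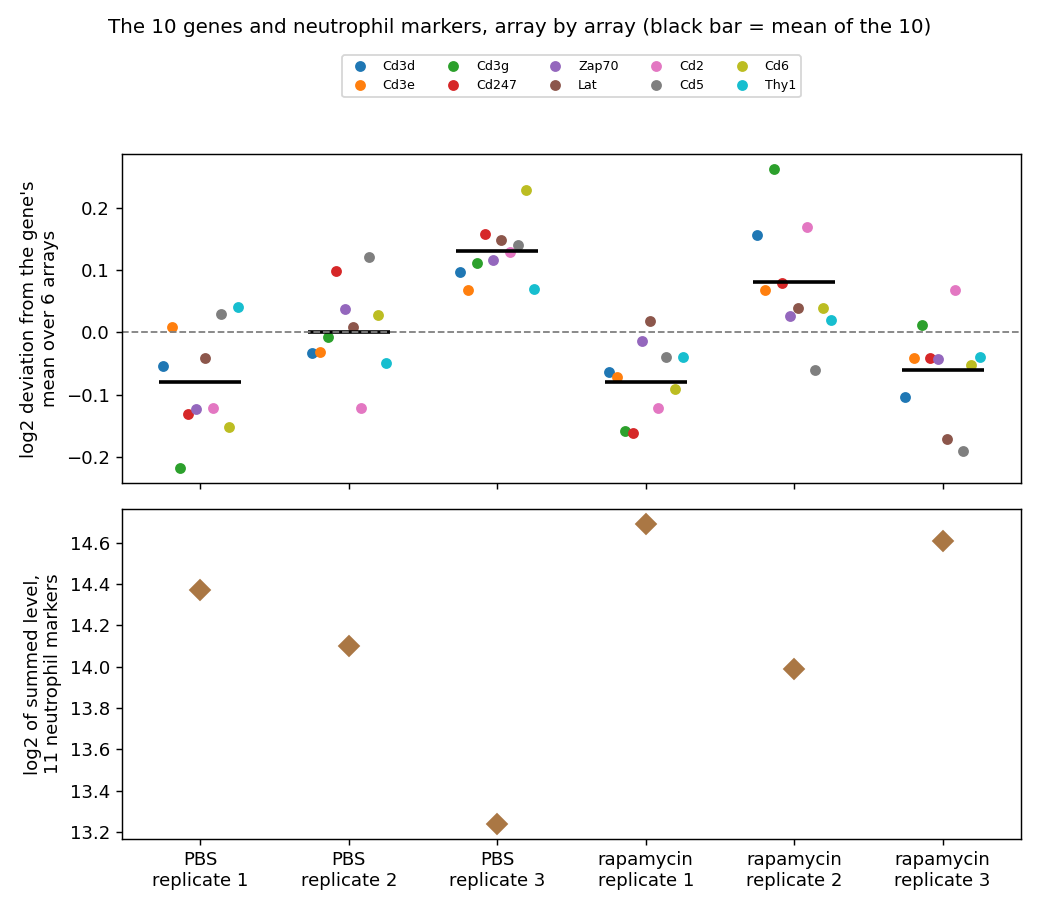
Upper panel, deviation of each of the 10 genes from its own mean over 6 arrays (y axis, log2; one colour per gene; black bar, mean of the 10); lower panel, log2 of the summed level of 11 neutrophil markers; x axis, the 6 mice. PBS replicate 3 has the highest mean deviation, 0.13, and the lowest neutrophil level, 13.24.

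After the group means were subtracted, all 45 pairs of the 10 genes had a positive correlation over the 6 arrays, with a median Pearson r of 0.69. These are descriptions over few arrays that share their scaling and cell mixture. The 6 pairs of CD3 chains ran from 0.64 (Cd3e with Cd247) to 0.96 (Cd3g with Cd247). Lat was closest to Cd5 (0.92) and Zap70 to Cd6 (0.94), while Cd5 stood farthest from Cd2 (0.11) and Thy1 (0.13). With the mean of the CD3 chains, r was 0.89 for Cd2, 0.85 for Cd6, 0.74 for Zap70, 0.57 for Lat, 0.51 for Thy1 and 0.42 for Cd5. Such likeness was widespread: of 9969 genes above the median gene, 64.4% had a positive r with the CD3 mean and 42.9% had at least that of Cd5. The 5 genes most like the CD3 mean were Pnkd (0.996), Nsun5 (0.996), 1110038F14Rik (0.995), Mrps7 (0.995) and Pold2 (0.994).

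Around the 10 genes, 76 of 82 listed pathway genes could be measured, and 0 passed the test in either direction. In limma, 3 of the 76 had an unadjusted p under 0.05, where 4.67% of all genes did. Negative differences were found in 48 of the 76, or 63.2%, against 55.3% of all genes, with a median of -0.04 against -0.01. The groups did not overlap for 9 of the 76, all lower with rapamycin, which is 11.8% against 6.28% of all genes, and for 0 in the upward direction against 3.14%. For Dgkz and Stim1 among these 9, the gap between the groups rounded to 0.0. Under the 3 other scalings 45 or 46 were negative and 6 to 9 did not overlap downwards, with Fyn, Dok2 and Dgka among them each time, and 0 to 2 upwards. With array median centring, 9.21% of the list did not overlap downwards, against 5.27% of all genes. Renewed quantile normalization gave 11.8% against 5.65%, and CD3 chain centring 7.89% against 1.72%. Upwards, the shares of all genes under these scalings were 3.96%, 4.48% and 2.55%. The list was chosen with earlier results of these data known, and these shares carry no test.

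Nearest to the receptor, the lineage co-receptors did not share a direction. Cd4, which binds MHC class II, differed by 0.14 (SE 0.20), and Cd8b1, a chain of the class I co-receptor, by -0.13 (SE 0.08). Cd8a, the other chain of that co-receptor and named after its values were seen, was at 0.03 (SE 0.09). The 4 measured tyrosine kinases all had negative differences (median -0.16), also under the 3 other scalings. Lck, listed with them, could not be matched to a probe set of its own and was not measured. Fyn, a Src-family kinase that phosphorylates the CD3 tails beside Lck, was at 11.44, 11.49 and 11.55 with PBS and at 11.28, 11.39 and 11.28 with rapamycin. Its groups did not overlap, and the difference was -0.18 (SE 0.08, limma unadjusted p = 0.0465, adjusted p = 1). Csk, the kinase that holds Lck and Fyn inactive, also lay lower in each rapamycin mouse, at 10.40 to 10.46 against 10.51 to 10.59, a difference of -0.13 (SE 0.07).

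Of 13 phosphatases and their recruiters, 10 had negative differences. Dok2, an adaptor that dampens receptor signals, measured 10.28 ± 0.08 with PBS and 10.05 ± 0.06 with rapamycin (SD, n = 3 each), a difference of -0.23 (SE 0.08, limma unadjusted p = 0.0203, adjusted p = 0.982). Ptpn22, a phosphatase that acts on Lck and Zap70, measured 11.62 ± 0.01 and 11.48 ± 0.06. Neither gene's groups overlapped. Among 16 adaptors around Lat, 10 were negative, with Sh2d2a, an adaptor that binds Lck, at -0.20 (SE 0.10) and Nck1, a link to actin, at -0.13 (SE 0.08). Skap1, an adaptor for integrin activation named after its values were seen, was the 1 adaptor whose groups did not overlap, at -0.11.

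Of 14 genes of the phospholipase, calcium and diacylglycerol branch, 12 had negative differences, with a median of -0.10 (10 under each of the 3 other scalings). Dgka, the kinase that removes diacylglycerol and so limits Ras activation, was at 12.50, 12.35 and 12.40 with PBS and at 12.14, 12.20 and 12.13 with rapamycin. All rapamycin mice lay below all PBS mice. Its difference of -0.26 (SE 0.08, 95% interval -0.44 to -0.08, limma unadjusted p = 0.00906, adjusted p = 0.970) was the lowest in the pathway lists. Itpkb, a kinase of inositol trisphosphate, was at -0.15 (SE 0.09). The related Dgkz and the calcium sensor Stim1, named after their values were seen, also did not overlap, at -0.10 and -0.11. The gap between their groups rounded to 0.0 for each. Stim1 overlapped under each of the 3 other scalings, and Dgkz was apart only with array median centring.

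Further downstream, all 6 measured Ras and MAP kinase genes had small positive differences, from 0.02 to 0.11 and positive under the other scalings too, with Rasgrp1, the diacylglycerol-driven activator of Ras, at 0.11 (SE 0.12) and Map2k1 at 0.09 (SE 0.09). Of 6 genes around BCL10, MALT1 and NF-kappa-B, 4 were positive, with the inhibitor Nfkbia at 0.19 (SE 0.13) and the subunit Rela at -0.07 (SE 0.08). Of 7 genes of Vav and actin control, 5 were negative. Was, the actin regulator lost in Wiskott-Aldrich syndrome, did not overlap at 9.67 to 9.78 with PBS and 9.54 to 9.61 with rapamycin, and Coro1a was at -0.08 (SE 0.08). Of 5 E3 ligases 3 were negative, with Cblb, which restrains T cell activation, at 0.11 (SE 0.10) and Nedd4 at -0.09 (SE 0.10). Alcam, the ligand of Cd6, had the highest difference in the pathway lists, 0.33 (SE 0.15, limma unadjusted p = 0.0549, adjusted p = 1), and Cd48, the ligand of Cd2, was at -0.16 (SE 0.11).

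**Figure D4:**
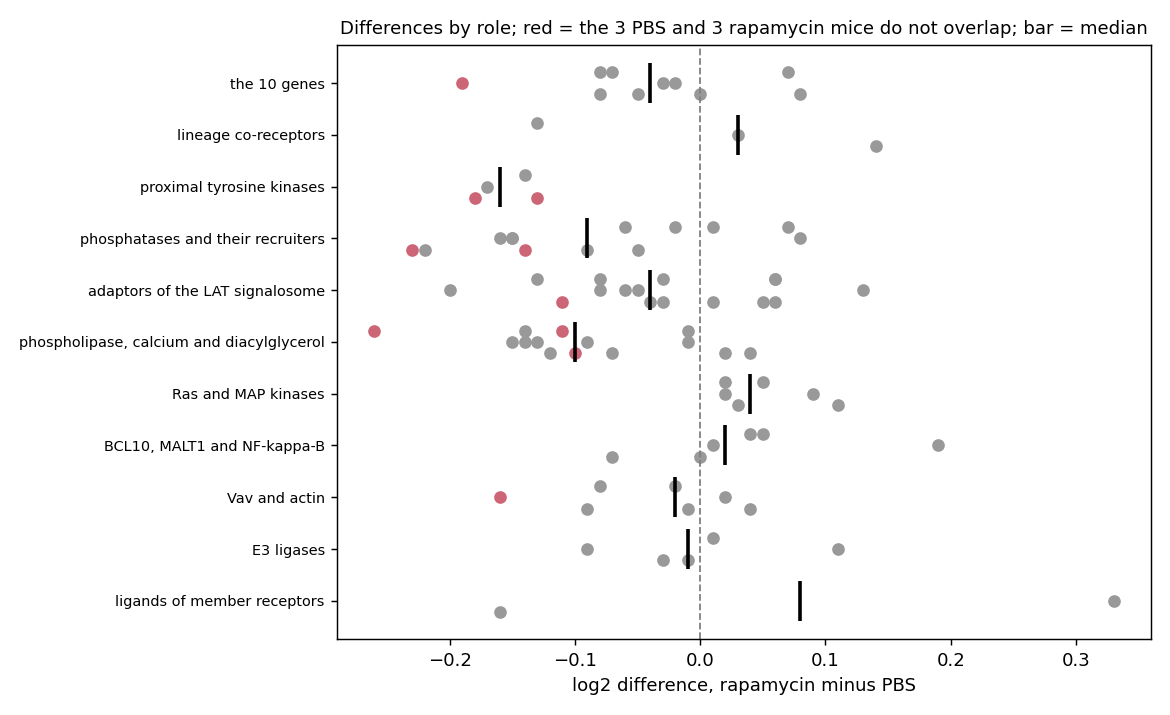
Differences by role (x axis, log2 difference, rapamycin minus PBS; each point a gene; red, genes whose 3 PBS and 3 rapamycin mice do not overlap; black bar, median of the list). Among the pathway lists the 9 red points, all negative, are Fyn, Csk, Dok2, Ptpn22, Skap1, Dgka, Dgkz, Stim1 and Was, and Cd5 is the red point among the 10 genes.

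The sorted samples held the defining T cell transcripts, with all 4 CD3 chain genes between 9.30 and 12.92 against array medians of 6.03 to 6.17. RMA values do not reach 0, so markers of other cells are read against a median. The median used for them is that of the 19946 named genes on each array, a different cut-off. Of 6 measured B cell markers 4, Cd79a among them, were below the median on every array. The log2 of the summed level of all 6 was 8.96 to 9.07 with PBS and 8.80 to 9.01 with rapamycin. Cd79b, a B cell receptor subunit above the median, was lower in every rapamycin mouse, at 6.80 to 6.89 against 7.16 to 7.56, a difference of -0.54 (SE 0.11, limma unadjusted p = 0.000912, adjusted p = 0.747). The list did not share that fall: of the 6 B cell markers 2 had negative and 4 positive differences, with a median difference of 0.01. For the next 4 lists, the ranges in brackets are the log2 of the summed level of the whole list, PBS first and rapamycin second. Of 5 natural killer cell markers 3, Ncr1 among them, were below the array median on every array (9.31 to 9.89 and 9.23 to 9.49). So were 3 of 5 plasma cell markers, Jchain and Sdc1 among them (10.74 to 11.06 and 10.73 to 11.19). The highest genes of these 2 lists, named after their values were seen, were Eomes (means 9.38 with PBS and 9.12 with rapamycin) and Xbp1 (9.97 and 10.17). Of 4 measured erythroid markers 2 were below it (8.24 to 8.92 and 8.63 to 9.34). The 9 monocyte and macrophage markers, Csf1r and Adgre1 among them, were not below it on every array (13.09 to 13.27 and 13.02 to 13.58), nor were the neutrophil markers. Some lay as high as CD3 chain genes: Lcn2 averaged 12.20 with PBS and 12.64 with rapamycin, and Lyz2 12.21 and 12.49. The lowest averages over all arrays were 7.29 for Retnlg among neutrophil markers and 6.37 for Spic among macrophage markers. Lcn2 and Retnlg were named after their values were seen. Of the 9 monocyte and macrophage markers, 7 had negative differences (5 under each of the 3 other scalings). In limma 3 of them had an unadjusted p under 0.05, Spic and C1qa lower and Lyz2 higher. Spic, a factor of red pulp macrophages, was at 6.70 or above in every PBS mouse and at 5.84 or below in every rapamycin mouse, a difference of -1.34 (SE 0.19, limma unadjusted p = 9.35e-05, adjusted p = 0.408). C1qa and C1qc, chains of complement C1q, differed by -0.56 (SE 0.22) and -0.50 (SE 0.24), and Vcam1 by -0.90 (SE 0.54). The rest of the list was at -0.16 for C1qb, -0.01 for Csf1r, -0.01 for Cd68, 0.10 for Adgre1 and 0.29 for Lyz2. Cd79b, Spic, C1qa, C1qc, Vcam1 and Lyz2 were named after their values were seen. Cd79b and Spic differed by more than any of the 10 genes and were apart under the 3 other scalings too. The part of these 6 marker genes in the differences above was not tested. Cd247, Zap70, Lat, Cd2 and Thy1 are also known in natural killer or other innate lymphoid cells, and Cd5 in some B cells. Precision is limited by 3 arrays per group: over all genes the standard error had a median of 0.0955.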

How the data were processed

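Sorted splenic T cells of 6 mice gave RNA for 6 arrays, grouped as PBS or rapamycin by sample title. The titles call the samples biological replicates. The deposited values are log2 expression, made by the authors with RMA in Affymetrix Expression Console per the submitters' processing notes. Their versions, the probe summary level and the genome build: not given in the sources used here. RMA scales arrays to a common distribution, so a shift shared by most genes would not be seen.

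Of 35556 probe sets, 21797 carried 1 symbol, and the probe set with the highest mean stood for each of 19946 genes. None of the 10 genes had a further probe set to compare. Groups were compared with limma 3.58.1 in R 4.3.3 (lmFit, eBayes, group only, two-sided, 8.44 degrees of freedom), and a gene was called where its p, adjusted by Benjamini-Hochberg over all genes, was under 0.05. The fit was tested on simulated data. Figures were drawn with matplotlib 3.10.9 in Python 3.11.15. Alternatives covered probe set choice, low values, scaling, array weights, variance trend, the mean log2 level of neutrophil markers as a covariate, replicate number and each array left out.

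The 10 genes and all lists were chosen with earlier results of these data known. Genes named are the 10, the 2 of smallest p in each pathway list, the 5 most like the CD3 mean and the leading markers of each cell type list. Added to them are those said to be named after their values were seen and the rest of the macrophage list.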

Additional observations from a re-analysis of the deposited data

How the results depend on the processing

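Of the 10 genes, 0 passed under any of 15 alternatives in limma, with 0 or 1 at an unadjusted p under 0.05. The median difference of the 10 genes lay between -0.0796 and 0.0107, closer to its value in the report than the spread of 0.0943 between replicates. Cd247, Lat, Cd2, Cd5 and Thy1 kept their sign in all 15. Averaging probe sets, leaving out low genes, the variance trend and the replicate block cannot change a difference of these genes. A sign could change only under the remaining alternatives. The signs of Cd3d, Cd3e, Cd3g, Zap70 and Cd6 each changed in 1 to 8 of the 15. Cd3d was at 0.01 with array median centring, renewed quantile normalization, CD3 chain centring and array weights, and at 0.05 with the neutrophil covariate. With that covariate Cd3e was at 0, Zap70 at 0.02 and Cd6 at 0.01. With 1 mouse left out, Cd3d ranged from -0.09 to 0.05, Cd3g from -0.04 to 0.17, Zap70 from -0.09 to 0.03 and Cd6 from -0.16 to 0.03.

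Over all genes the count of calls was 1, and 4 with CD3 chain centring (Ermn, Glp1r, Scin and Spic) or 3 with the neutrophil covariate (Glp1r, Penk and Scin), and the cause was not tested. It was 0 to 7 with 1 mouse left out: 7 without rapamycin replicate 1 and 0 without any other (limma, 666 to 929 at an unadjusted p under 0.05). With the replicate number as a block it was 0 in limma (992 at an unadjusted p under 0.05), and Cd5 had an unadjusted p of 0.0693. The numbers were not taken to pair mice, since the labels do not say that they do. Deviations of same-numbered mice correlated at 0.086, -0.192 and 0.195 over genes. Rapamycin replicates 1 and 2 each correlated best with a PBS mouse of another number (0.365 and 0.364), and rapamycin replicate 3 with PBS replicate 3. Where a mouse is left out, 1 arm has 2 arrays, and precision is limited throughout by the number of arrays.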
